A study of Homo sapiens with 12 samples.

Results

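Nucleotide synthesis was followed through 34 genes for the enzymes that make, balance and recycle purine, pyrimidine and deoxynucleotides (dNTPs), taken from the gene table by an exact match of the gene symbol. All 34 were found among the 60591 genes of the table, and all 34 were among the 19108 genes that passed the filter on low counts. The libraries came from PC9 and H1650, established human non-small cell lung cancer lines that carry the same activating deletion in EGFR. Each line was sampled at T0 in 0.1% DMSO and after 36 h with 10 μM erlotinib, a first-generation EGFR inhibitor, or 0.1 μM osimertinib, a third-generation one, with 2 replicates in each of the 6 groups. All groups were labelled Wild-type in genotype and were grown in RPMI with fetal bovine serum. No 36 h vehicle library was analysed here, so a change against T0 also holds the effect of 36 h in culture. Both drugs of a line are compared with the same T0 libraries.

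Library totals ran from 17961765 to 26346187 reads, and mitochondrial genes took between 4.36% and 7.20% of them. All 6 epithelial markers examined were detected in every library, whereas the 4 lung lineage markers (NKX2-1, NAPSA, SFTPB and SFTPC) summed to between 0.419 and 1.94 normalized CPM (counts per 1000000 reads of the scaled library). Markers of leukocytes and endothelium summed to at most 3.96 and 5.55 normalized CPM. Markers of fibroblasts reached 45.8 in an osimertinib-treated PC9 library, against at most 24.7 in the other PC9 conditions. In that library COL1A1 alone held 44.8 and PDGFRB 1.02, while DCN and LUM had at most 1 read in any library. The part of these markers in the results was not tested. The study describes its replicates as biological, while the labels do not say whether they came from separate cultures or days. The p-values measure the spread between these libraries.

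Purines are assembled stepwise on phosphoribosyl pyrophosphate (PRPP) to give inosine monophosphate (IMP), which is then converted to adenine or guanine nucleotides. Pyrimidines are built as a free ring by CAD and DHODH and joined to PRPP by UMPS. Ribonucleotide reductase turns ribonucleotides into deoxyribonucleotides, thymidylate synthase supplies the thymine of DNA, and salvage enzymes recover bases and nucleosides. Many of these genes are known targets of E2F factors, which act at the G1/S transition, or of MYC.

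Summed over the 34 genes, expression was lower after either drug in both lines, and by more in PC9. Their summed level was 4786 and 4908 normalized CPM in the PC9 T0 libraries, 1880 and 1934 after erlotinib, and 1861 and 1956 after osimertinib. In H1650 the sum was 3588 and 3555 at T0, 2513 and 2631 after erlotinib, and 2486 and 2484 after osimertinib. Within each line no treated library overlapped T0, and the PC9 T0 libraries were the highest of the 12. In bulk samples fewer cells of a kind and less RNA per cell cannot be told apart.

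In PC9, 33 of 34 genes were lower after erlotinib and 1 was higher, at an edgeR adjusted p under 0.05 (a call), with a median log2 fold change of -1.20. Over all 19108 genes tested, 29.1% were called lower, 32.7% were called higher and the median was 0.07. After osimertinib 32 were lower, 1 was higher and 1 was not called, with a median of -1.31, against 28.7% called lower and 32.7% called higher over all genes. By size, 22 of 34 genes changed at least 2-fold after erlotinib and 24 after osimertinib, all of them downward, against 30.8% and 31.2% of all genes that did so in either direction. The treated and T0 libraries of PC9 did not overlap for any of the 34, which also held for 78.7% of all genes with erlotinib and 78.8% with osimertinib.

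In H1650, 21 of 34 genes were lower after erlotinib, 3 were higher and 10 were not called, with a median log2 fold change of -0.40. All tested genes gave 18.5% lower and 18.0% higher in that comparison. After osimertinib 25 were lower, 1 was higher and 8 were not called, with a median of -0.42, against 17.9% lower and 17.8% higher over all genes. With erlotinib 3 genes changed at least 2-fold, all downward, against 8.12% of all genes in either direction, and with osimertinib 4 did, 3 of them downward, against 7.30%. The treated and T0 libraries did not overlap for 30 genes with erlotinib and for 32 with osimertinib, against 65.6% and 64.9% of all genes. Across the 4 comparisons 19 of 34 genes (55.9%) were lower each time, against 1751 of 19108 genes (9.16%), and no gene of the 34 was higher each time, against 1619 of 19108 (8.47%).

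**Figure D1:**
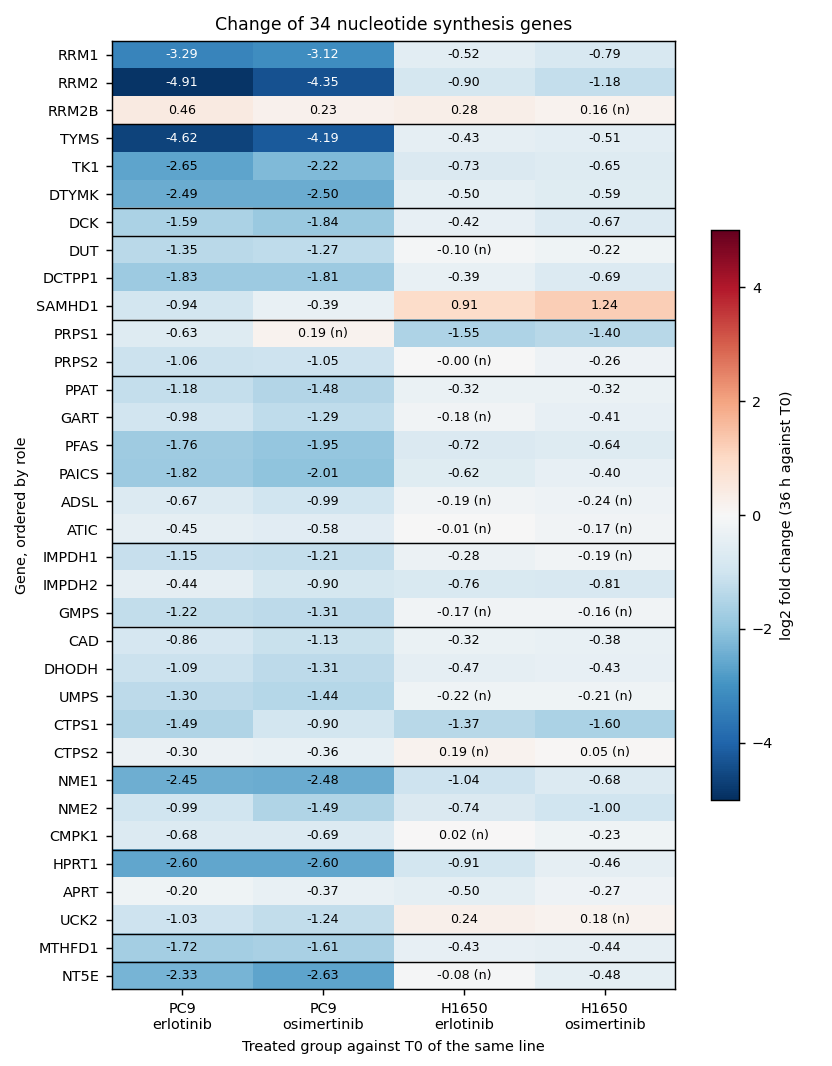
Log2 fold change of the 34 genes (rows, ordered by role and separated by lines) after 36 h of drug against T0 of the same line (columns). Blue is lower, red is higher, and (n) marks values that were not called. The PC9 columns are lower throughout except at RRM2B and, with osimertinib, PRPS1, while the H1650 columns are paler and hold the higher SAMHD1 values of 0.91 and 1.24.

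In PC9, RRM2 of ribonucleotide reductase changed furthest of the 34 genes. RRM2 (chromosome 2, GENCODE gene at chr2:10120698-10131419, GRCh38, plus strand) encodes the small subunit used for S-phase dNTP supply. Its level was 297 and 303 normalized CPM in PC9 at T0, 9.45 and 10.4 after erlotinib, and 15.1 and 14.3 after osimertinib. In H1650 it was 457 and 467 at T0, 237 and 260 after erlotinib, and 194 and 214 after osimertinib. Every treated library lay below T0 of its line, and the lowest treated H1650 library was still more than 10 times above every treated PC9 library. RRM2 fell 30.2-fold with erlotinib and 20.4-fold with osimertinib in PC9 (log2 -4.91 ± 0.09 and -4.35 ± 0.09, estimate ± SE). In H1650 it fell 1.86-fold and 2.27-fold (log2 -0.90 ± 0.07 and -1.18 ± 0.07). Each SE was derived as the size of the log2 estimate divided by the square root of the F statistic of its test.

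RRM1 (chr11:4094707-4138876, plus strand) encodes the large, catalytic subunit. It stood at 144 and 151 normalized CPM in PC9 at T0, 14.1 and 16 after erlotinib, and 17.8 and 15.9 after osimertinib. Its H1650 levels were 99.6 and 102 at T0, 67.5 and 73.2 after erlotinib, and 56.5 and 59.7 after osimertinib. The 4 treated PC9 libraries were the lowest of all 12, and every treated library was below T0. The fall was 9.80-fold and 8.72-fold in PC9, and 1.43-fold and 1.73-fold in H1650.

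RRM2B, the p53-inducible small subunit that serves DNA repair and mitochondrial DNA in cells outside S phase, went the other way. In PC9 it was 28.9 and 30.3 normalized CPM at T0, 40.0 and 41.2 after erlotinib, and 35.7 and 33.7 after osimertinib. The H1650 libraries held 46.9 and 48.2 at T0, 53.7 and 61.7 after erlotinib, and 53.8 and 52.5 after osimertinib. All treated libraries were above T0 of their line. The gene rose after erlotinib in PC9 (log2 0.46 ± 0.09) and in H1650 (0.28 ± 0.09), and after osimertinib in PC9 (0.23 ± 0.09, edgeR adjusted p = 0.033). In H1650 with osimertinib the value was 0.16 ± 0.09 (edgeR adjusted p = 0.16), and was called with library totals alone (0.23). The osimertinib call in PC9 was lost with DESeq2 (0.22, DESeq2 adjusted p = 0.093) without any filter (0.15) and with 1 fit per line (0.17), and also without either PC9 T0 replicate (0.19 and 0.26), without PC9 osimertinib replicate 1 (0.19), or without H1650 T0 replicate 1 or either H1650 osimertinib replicate (0.22 each time). The erlotinib call in H1650 was lost without H1650 T0 replicate 1 (0.26) or without H1650 erlotinib replicate 2 (0.17).

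The balance of the small subunits can be read as reads of RRM2 per read of RRM2B in the same library, a ratio that is not corrected for length and is compared only between libraries. It was 10.3 and 10.0 in PC9 at T0, 0.236 and 0.252 after erlotinib, and 0.422 and 0.424 after osimertinib. H1650 gave 9.76 and 9.68 at T0, 4.42 and 4.21 after erlotinib, and 3.60 and 4.07 after osimertinib. The T0 ratios of both lines were close to each other, and only the treated PC9 libraries had fewer reads of RRM2 than of RRM2B.

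**Figure D2:**
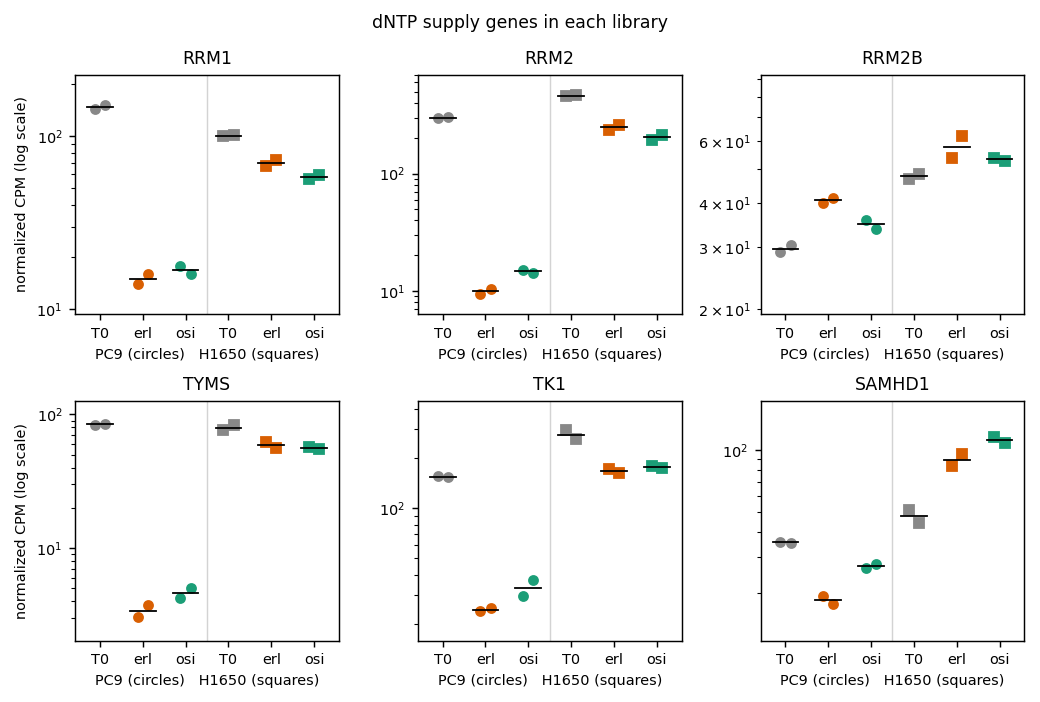
Normalized CPM (log axes) of RRM1, RRM2, RRM2B, TYMS, TK1 and SAMHD1 in each of the 12 libraries, with PC9 as circles and H1650 as squares at T0, after erlotinib (erl) and after osimertinib (osi). Points are single libraries and bars are the means of 2 replicates. RRM1, RRM2, TYMS and TK1 drop far in PC9 and by less in H1650. RRM2B is above T0 in every treated library, and SAMHD1 is below T0 in PC9 and above it in H1650.

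The thymidylate genes followed RRM2. TYMS (chr18:657604-673578, plus strand) encodes thymidylate synthase, which methylates dUMP to dTMP. Its level was 84.0 and 84.4 normalized CPM in PC9 at T0, 3.05 and 3.75 after erlotinib, and 4.25 and 4.99 after osimertinib. Levels in H1650 were 76.6 and 83.0 at T0, 62.4 and 55.8 after erlotinib, and 57.1 and 55.1 after osimertinib. The T0 levels of the lines differed by less than the test could call, and every treated PC9 library was below every H1650 library. TYMS fell 24.6-fold and 18.3-fold in PC9 but 1.35-fold and 1.42-fold in H1650. ENOSF1 and TYMSOS overlap TYMS on the opposite strand, and where counting did not use strand their reads cannot be told apart from those of TYMS. ENOSF1 itself held between 267 and 2932 reads per library.

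TK1, the cytosolic thymidine kinase of the S-phase salvage route, was 156 and 154 normalized CPM in PC9 at T0, 24.0 and 25.2 after erlotinib, and 29.5 and 36.9 after osimertinib. For H1650 the values were 297 and 261 at T0, 172 and 163 after erlotinib, and 180 and 176 after osimertinib. All treated libraries were below T0, and every treated H1650 library was above the PC9 T0 libraries. TK1 changed by -2.65 ± 0.09 (erlotinib) and -2.22 ± 0.09 (osimertinib) on the log2 scale in PC9, and by -0.73 ± 0.08 and -0.65 ± 0.08 in H1650. DTYMK, which phosphorylates dTMP on the way to dTTP, fell by 2.49 and 2.50 in PC9 and by 0.50 and 0.59 in H1650 on the same log2 scale, so that all 3 thymidylate genes were lower in all 4 comparisons.

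DCK, the kinase that salvages deoxycytidine and activates several nucleoside drugs, was 27.1 and 29.5 normalized CPM in PC9 at T0, 9.72 and 9.10 after erlotinib, and 7.58 and 8.18 after osimertinib. The level in H1650 was 52.7 and 51.2 at T0, 37.9 and 39.6 after erlotinib, and 36.3 and 29.2 after osimertinib. It fell in all 4 comparisons, by 1.59 and 1.84 on the log2 scale in PC9 and by 0.42 and 0.67 in H1650. MOB1B overlaps DCK exons on the same strand and held 505 to 1149 reads per library, against 146 to 1326 for DCK. Reads of the shared bases cannot be told apart, whether or not counting used strand.

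Among enzymes that hydrolyse dNTPs, DUT and DCTPP1 fell while SAMHD1 moved in opposite directions in the lines. DUT, the dUTPase that keeps uracil out of DNA, fell by 1.35 and 1.27 on the log2 scale in PC9, fell by 0.22 with osimertinib in H1650, and was -0.10 ± 0.08 with erlotinib there. The osimertinib call for DUT in H1650 was lost without any 1 of the 4 H1650 libraries involved (log2 between -0.26 and -0.18) and with library totals alone (-0.15). DCTPP1, a pyrophosphatase of modified and canonical dCTP, was 146 and 143 normalized CPM in PC9 at T0, 37.7 and 43.5 after erlotinib, and 39.2 and 43.1 after osimertinib. In H1650 its levels were 45.3 and 41.3 at T0, 32.1 and 34.1 after erlotinib, and 28.7 and 24.9 after osimertinib. DCTPP1 fell in all 4 comparisons, and its range in treated PC9 overlapped that of untreated H1650.

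SAMHD1 is a dNTP triphosphohydrolase that lowers dNTP pools, chiefly in cells that are not dividing. In PC9 it was 35.6 and 35.3 normalized CPM at T0, 19.4 and 17.7 after erlotinib, and 26.5 and 27.8 after osimertinib. In H1650 it was 51.2 and 44.1 at T0, 83.5 and 95.6 after erlotinib, and 116 and 108 after osimertinib. The treated libraries lay below T0 in PC9 and above it in H1650, without overlap. On the log2 scale PC9 changed by -0.94 ± 0.10 with erlotinib and -0.39 ± 0.10 with osimertinib, H1650 by 0.91 ± 0.09 and 1.24 ± 0.09, and the drug-by-line differences were 1.85 ± 0.13 and 1.62 ± 0.13.

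The promoter sequences of these dNTP genes, with those of the purine and pyrimidine genes described next, are shown in part because so many of them moved together. RefSeq promoters of GRCh38.p14 (250 bases before to 50 after the start) were matched for 31 of the 34 genes. The E2F-type octamers TTTCCCGC, TTTGGCGC, TTCCCGCC and TTTCGCGC were searched on both strands, of which the first and the third can overlap. A gene can have more than 1 promoter there, and was counted when any of its promoters held a match. One of the octamers was found for 8 of 31 genes (25.8%) against 6.03% of 27305 gene symbols with a promoter. Those symbols were not matched to the 31 genes in base composition or expression, here and for the sequences below. The E-box CACGTG, a sequence that MYC can bind, was found for 8 of 31 genes (25.8%) against 8.78% of all symbols. The promoters of PPAT and PAICS overlap, and their E-box match is the same bases, counted for both genes. The GC box GGGCGG was found for 25 of 31 (80.7%) against 48.3%, and CCAAT for 12 of 31 (38.7%) against 39.7%. The CHR-type sequences TTTGAA and TTCGAA were also searched. TTTGAA was found for 3 of 31 (9.68%) against 18.2%, and TTCGAA for 2 of 31 (6.45%) against 1.82%. In the stretches of 30 bases below, written 5′ to 3′ on the strand of the gene, capitals mark the matches, in RRM1, TYMS and DUT to the E2F-type octamers and in PPAT, DHODH and MTHFD1 to the E-box. In DUT the first capital run holds overlapping matches to the first and the third octamer on the other strand. The stretches are not all outside transcribed sequence. All 30 bases lie in annotated exons in TYMS, DUT, PPAT and MTHFD1, and 21 in DHODH, against 0 in RRM1. The PPAT stretch lies within the PAICS gene. Of the 250 bases before the start, exons held 0 in the RRM1 promoter and all 250 in that of MTHFD1.
RRM1 (chr11:4094456-4094485, plus strand): aaaacgTTCCCGCCggttaggttttgttat
TYMS (chr18:657608-657637, plus strand): acggccGCGGGAAAaggcgcgcggaagggg
DUT (chr15:48332148-48332177, plus strand): ggggctGGCGGGAAAtttcggtTTTGGCGC
PPAT (chr4:56435774-56435803, minus strand): gatttcCACGTGcagcaaatacagctttcc
DHODH (chr16:72008579-72008608, plus strand): actgcgCACGTGcacccaaccagaacctgg
MTHFD1 (chr14:64388323-64388352, plus strand): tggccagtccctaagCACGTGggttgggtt

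A match describes letters and is not evidence of binding, and no match says only that the letters are not in that stretch. RRM2, TYMS and RRM1 fell furthest in PC9, and of these RRM2 had no E2F-type octamer in its promoter, while TYMS and RRM1 had 1 each. Genes that changed less also had matches. PRPS1, which was not called with osimertinib in PC9, had an E2F-type octamer. ATIC, the least changed gene of IMP synthesis in PC9, had the E-box.

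PRPP synthetases make the sugar donor for purine and pyrimidine nucleotides, and the pair of genes behaved differently. PRPS1 was 156 and 151 normalized CPM in PC9 at T0, 96.5 and 102 after erlotinib, and 164 and 187 after osimertinib. Its H1650 levels were 64.1 and 64.6 at T0, 19.0 and 25.0 after erlotinib, and 23.8 and 25.1 after osimertinib. It was lower with erlotinib in PC9 (log2 -0.63 ± 0.09) and with both drugs in H1650 (-1.55 ± 0.10 and -1.40 ± 0.10), where it fell furthest of the 34 genes with erlotinib. With osimertinib in PC9 both libraries were above T0, and the value was 0.19 ± 0.09 (edgeR adjusted p = 0.059). This value was called higher without composition factors (0.23), with upper-quartile factors (0.26), when 10 counts were required in each library (0.24), and without PC9 osimertinib replicate 1 (0.28) or either H1650 erlotinib replicate (0.18).

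PRPS2 was 123 and 127 normalized CPM in PC9 at T0, 58.4 and 61.6 after erlotinib, and 58.4 and 62.6 after osimertinib. The H1650 libraries held 44.2 and 39.7 at T0, 42.2 and 41.5 after erlotinib, and 33.3 and 36.7 after osimertinib. PRPS2 was thus lower with both drugs in PC9 (log2 -1.06 ± 0.08 and -1.05 ± 0.08), whereas the erlotinib and T0 libraries of H1650 overlapped. Its osimertinib value in H1650 (-0.26 ± 0.09) was no longer called with library totals alone (-0.19), without H1650 T0 replicate 1 (-0.18) or without H1650 osimertinib replicate 1 (-0.19). Reads of PRPS1 per read of PRPS2 rose from 1.27 and 1.19 to 2.81 and 2.99 with osimertinib in PC9, and went from 1.45 and 1.63 to 0.714 and 0.682 in H1650.

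All 6 enzymes of IMP synthesis were lower with both drugs in PC9. PPAT commits PRPP to the pathway, GART and PFAS act at the early steps, PAICS joins the middle ones, ADSL acts in IMP synthesis and again in the AMP branch, and ATIC closes the ring. The largest changes were those of PAICS, at 305 and 333 normalized CPM at T0, 88.5 and 92.9 after erlotinib, and 77.2 and 81.5 after osimertinib. The smallest were those of ATIC, at 292 and 293 at T0, 208 and 218 after erlotinib, and 189 and 203 after osimertinib. PAICS fell by 1.82 and 2.01 on the log2 scale and ATIC by 0.45 and 0.58, with the other 4 between them. In H1650, PPAT, PFAS and PAICS were lower with both drugs, and ADSL and ATIC were not called. ATIC with osimertinib was called with DESeq2 (-0.18) and with the replicate number as a block (-0.17). GART was lower with osimertinib (log2 -0.41 ± 0.08) and not called with erlotinib (-0.18 ± 0.07). That erlotinib value of GART was called with DESeq2 (-0.21), with RLE factors (-0.20), with the block (-0.18) and without H1650 erlotinib replicate 2 (-0.27). SON overlaps GART on the opposite strand and held 3681 to 9962 reads per library against 1116 to 3748 for GART, so where counting did not use strand their reads cannot be told apart. The PPAT value of -0.32 with either drug in H1650 lost its call without H1650 T0 replicate 2 (-0.28 and -0.27), and also without erlotinib replicate 1 (-0.25) or osimertinib replicate 1 (-0.25), and with erlotinib when scaled by library totals alone (-0.20). ADSL had few reads (at most 9.42 normalized CPM in any library), so its error is larger, and its ± SE was 0.17 to 0.20. AL022238.4 overlaps ADSL exons on the same strand and held 0 to 4 reads per library. Reads of the shared bases may be dropped, so the level of ADSL is uncertain.

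In the guanine branch, IMPDH1 and IMPDH2 both carry out the rate-limiting oxidation of IMP, and GMPS makes GMP. IMPDH1 was 212 and 209 normalized CPM in PC9 at T0, 97.6 and 92.6 after erlotinib, and 92.3 and 89.8 after osimertinib. H1650 gave 44.2 and 42.1 at T0, 38.0 and 33.0 after erlotinib, and 39.5 and 36.0 after osimertinib. IMPDH2 was 204 and 206 in PC9 at T0, 149 and 153 after erlotinib, and 104 and 116 after osimertinib. In H1650 IMPDH2 stood at 192 and 196 at T0, 111 and 119 after erlotinib, and 112 and 109 after osimertinib. IMPDH2 was not called between the lines at T0 (-0.08 ± 0.07) and ended below T0 in all 8 treated libraries, while IMPDH1 separated the lines before any drug. IMPDH2 fell by 0.44 and 0.90 on the log2 scale in PC9 and by 0.76 and 0.81 in H1650. IMPDH1 fell by 1.15 and 1.21 in PC9 and by 0.28 with erlotinib in H1650, a call that was lost without H1650 T0 replicate 1 (-0.25) or erlotinib replicate 2 (-0.19), and with library totals alone (-0.15). GMPS fell by 1.22 and 1.31 in PC9 and was not called in H1650. With erlotinib there it was called at -0.28 without replicate 2 of that group. With the replicate number as a block it was called with both drugs in H1650 (-0.17 and -0.16).

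All 5 genes of pyrimidine synthesis were lower with both drugs in PC9. CAD, which holds the first enzymes of the pathway in 1 polypeptide, fell by 0.86 and 1.13 on the log2 scale in PC9 and by 0.32 and 0.38 in H1650. DHODH, the mitochondrial dihydroorotate dehydrogenase, fell by 1.09 and 1.31 in PC9 and by 0.47 and 0.43 in H1650. UMPS, which completes UMP, fell by 1.30 and 1.44 in PC9 and was -0.22 ± 0.09 and -0.21 ± 0.09, not called, in H1650. These 3 genes were below T0 of the line in all 8 treated libraries, and UMPS with erlotinib in H1650 was called when either PC9 erlotinib replicate was left out (-0.22) and with RLE factors (-0.24).

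CTP synthetases convert UTP to CTP. CTPS1, linked to the demand of dividing cells, was 266 and 280 normalized CPM in PC9 at T0, 98.8 and 95.9 after erlotinib, and 150 and 143 after osimertinib. Levels in H1650 were 265 and 265 at T0, 91.9 and 113 after erlotinib, and 85.7 and 88.8 after osimertinib. CTPS1 fell by 1.49 and 0.90 on the log2 scale in PC9 and by 1.37 and 1.60 in H1650, and only the osimertinib change differed between the lines in the direct test of that difference. CTPS2 was 18.1 and 24.7 in PC9 at T0, 17.2 and 17.5 after erlotinib, and 17.4 and 15.9 after osimertinib. In H1650 CTPS2 was 12 and 12.2 at T0, 14.3 and 13.3 after erlotinib, and 13 and 12 after osimertinib. The PC9 T0 replicates of CTPS2 were far apart, with the first close to the treated libraries. Its calls of -0.30 and -0.36 in PC9 were -0.06 and -0.12, and not called, without PC9 T0 replicate 2, and were also lost without PC9 erlotinib replicate 1 (-0.29), erlotinib replicate 2 (-0.32) or osimertinib replicate 2 (-0.30). With all libraries kept, both calls of CTPS2 were also lost with DESeq2 (-0.33 and -0.38) and with upper-quartile factors (-0.21 and -0.29), and the erlotinib call was lost with library totals alone (-0.21) and when 10 counts were required in each library (-0.25).

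Among nucleotide kinases, NME1 and NME2 exchange phosphate between nucleoside diphosphates and triphosphates, and CMPK1 phosphorylates CMP and UMP. NME1 was 66.1 and 61.2 normalized CPM in PC9 at T0, 11.2 and 11.9 after erlotinib, and 10.5 and 12.3 after osimertinib. For H1650 the values were 51.2 and 46.0 at T0, 23.8 and 23.6 after erlotinib, and 28.8 and 31.8 after osimertinib. It fell 5.48-fold and 5.59-fold in PC9 and 2.05-fold and 1.60-fold in H1650. NME2 was 6.20 and 6.42 in PC9 at T0, 3.85 and 2.54 after erlotinib, and 2.03 and 2.47 after osimertinib. In H1650 NME2 was 4.80 and 4.86 at T0, 2.99 and 2.79 after erlotinib, and 2.58 and 2.27 after osimertinib. NME1 and NME2 share exons with the readthrough gene NME1-NME2 and are near-identical in part, so reads may be split or dropped between them, and these low NME2 counts (44 reads at the least) are uncertain. NME2 was called lower in all 4 comparisons, but with erlotinib in H1650 (-0.74 ± 0.24) not without T0 replicate 2 (-0.73) or erlotinib replicate 2 (-0.70). CMPK1 fell by 0.68 and 0.69 on the log2 scale in PC9, and in H1650 was 0.02 ± 0.07 with erlotinib and fell by 0.23 with osimertinib, a call that was lost without H1650 T0 replicate 1 (-0.20), osimertinib replicate 1 (-0.24) or osimertinib replicate 2 (-0.22).

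In salvage, HPRT1 recovers hypoxanthine and guanine, APRT adenine, and UCK2 uridine and cytidine. TMCO1 overlaps UCK2 on the opposite strand and held 1160 to 2399 reads per library, against 686 to 1831 for UCK2. Where counting did not use strand, reads of their shared bases cannot be told apart. HPRT1 was 97.2 and 104 normalized CPM in PC9 at T0, 16.4 and 16.8 after erlotinib, and 16.1 and 17.2 after osimertinib. The level in H1650 was 38.5 and 38.2 at T0, 20.1 and 20.7 after erlotinib, and 29.3 and 26.5 after osimertinib. All treated PC9 libraries lay below every H1650 library, although HPRT1 was higher in PC9 at T0. It fell 6.06-fold with either drug in PC9 and 1.88-fold and 1.38-fold in H1650. UCK2 was lower with both drugs in PC9 (log2 -1.03 ± 0.09 and -1.24 ± 0.09) but not in H1650. There it was 0.24 ± 0.09 with erlotinib (edgeR adjusted p = 0.031) and 0.18 ± 0.09 with osimertinib (edgeR adjusted p = 0.11, called at 0.25 with library totals alone). The erlotinib call of UCK2 in H1650 was lost with DESeq2 (0.22), with RLE factors (0.22), without any filter (0.22), and without H1650 T0 replicate 1 (0.26), H1650 T0 replicate 2 (0.22) or H1650 erlotinib replicate 2 (0.15). APRT changed least of the salvage genes in PC9 (-0.20 ± 0.09 and -0.37 ± 0.09), and its erlotinib call there was lost without either PC9 T0 replicate (-0.21 and -0.20) or without PC9 erlotinib replicate 2 (-0.09). It was also lost with DESeq2 (-0.22, DESeq2 adjusted p = 0.051), with upper-quartile factors or library totals alone (-0.11 for both) and when 10 counts were required in each library (-0.15). In H1650 APRT fell by 0.50 with erlotinib and by 0.27 with osimertinib, the second of which lost its call without H1650 T0 replicate 1 (-0.21) or osimertinib replicate 2 (-0.19), and with library totals alone (-0.20).

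MTHFD1, which supplies one-carbon units for purines and thymidylate, fell by 1.72 and 1.61 on the log2 scale in PC9 and by 0.43 and 0.44 in H1650. NT5E (CD73) is a surface 5′-nucleotidase that turns extracellular AMP into adenosine, and so stands outside nucleotide synthesis. It was 263 and 273 normalized CPM in PC9 at T0, 50.3 and 56.1 after erlotinib, and 45.3 and 41.3 after osimertinib. In H1650 it was 20.3 and 18.4 at T0, 18.9 and 17.7 after erlotinib, and 14.6 and 13.2 after osimertinib. NT5E fell 5.03-fold and 6.17-fold in PC9, whereas in H1650 the erlotinib libraries overlapped T0 and osimertinib gave a log2 fold change of -0.48 ± 0.10.

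**Figure D3:**
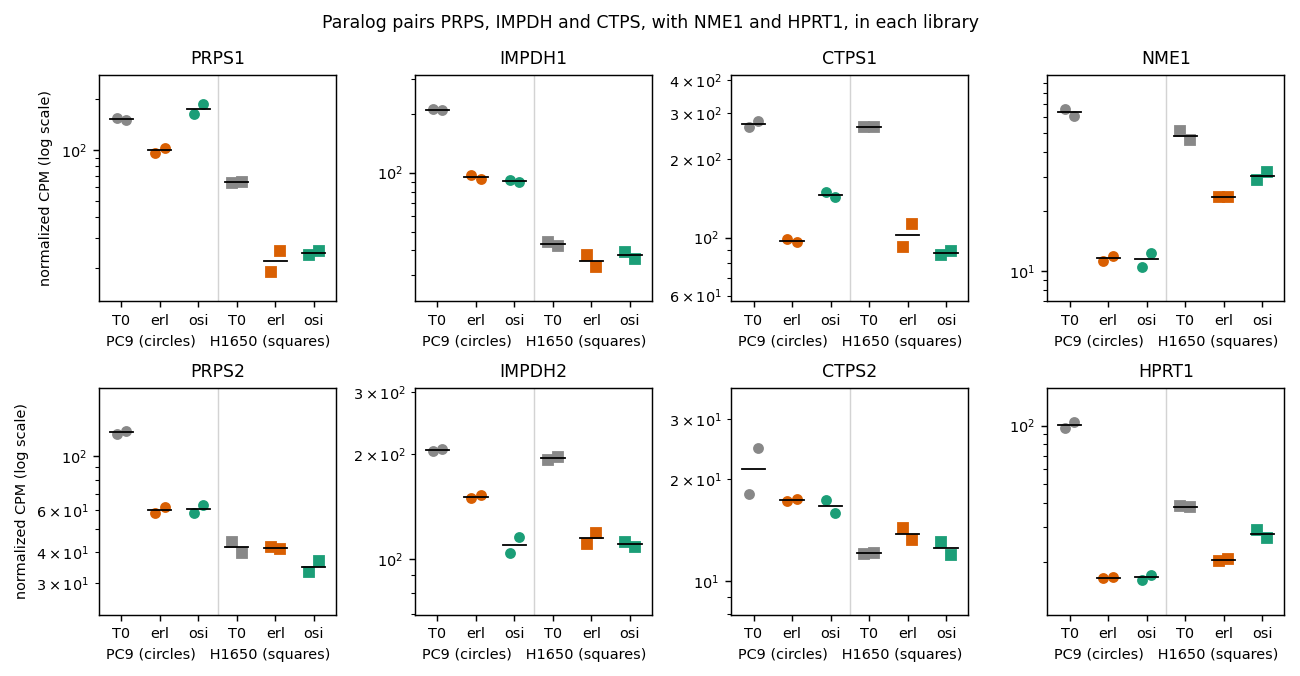
Normalized CPM (log axes) of PRPS1 and PRPS2, IMPDH1 and IMPDH2, CTPS1 and CTPS2, and NME1 and HPRT1 in each library, with PC9 as circles and H1650 as squares at T0, after erlotinib (erl) and after osimertinib (osi). Points are libraries and bars are means of 2 replicates. PRPS1 with osimertinib in PC9 lies at 164 and 187, above T0, while IMPDH2 and CTPS1 fall in both lines.

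Whether the lines differed in their change against T0 was tested directly as the drug-by-line difference, the log2 change in H1650 minus that in PC9. A positive value means that the gene fell less, or rose more, in H1650. Without a 36 h vehicle library, the drug-by-line difference also holds any difference between the lines in the effect of 36 h in culture. With erlotinib it was positive and called for 27 of 34 genes, negative for 2 and not called for 5, against 21.1% called higher and 19.8% called lower over all genes, with a median of 1.06. With osimertinib 27 were positive, 2 were negative and 5 were not called, against 21.5% and 20.5%, with a median of 1.13. The difference was positive with both drugs for 26 genes. The largest were TYMS (4.19 ± 0.15 with erlotinib and 3.69 ± 0.15 with osimertinib), RRM2 (4.02 ± 0.12 and 3.17 ± 0.11) and RRM1 (2.78 ± 0.12 and 2.33 ± 0.12). PRPS1 differed the other way with both drugs (-0.92 ± 0.13 and -1.59 ± 0.13), as did IMPDH2 with erlotinib (-0.32 ± 0.10, lost without PC9 T0 replicate 1, H1650 T0 replicate 2 or H1650 erlotinib replicate 1, at -0.31, -0.30 and -0.24) and CTPS1 with osimertinib (-0.70 ± 0.11). For NME2, CTPS1 and RRM2B the erlotinib difference was 0.25 ± 0.33, 0.12 ± 0.11 and -0.18 ± 0.12, with none called.

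**Figure D4:**
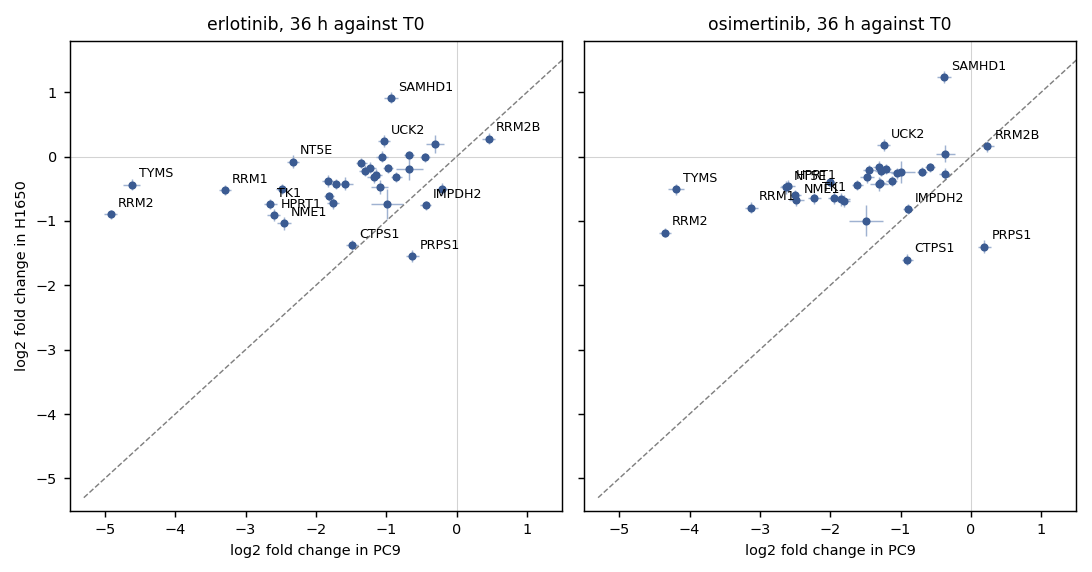
Log2 fold change of each of the 34 genes in H1650 (vertical axis) against PC9 (horizontal axis) after erlotinib (left) and osimertinib (right). Bars are standard errors derived from the F statistic. The dashed line marks equal change. Most genes lie above it with a negative value in PC9, RRM2, TYMS and RRM1 lie furthest left, and PRPS1 lies below the line with both drugs.

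Osimertinib and erlotinib were given at 0.1 and 10 μM, so their direct comparison is one of these treatments and not of matched doses. In PC9, 4 of 34 genes were lower and 5 were higher with osimertinib, against 6.41% lower and 10.1% higher over all genes. PRPS1 (log2 0.82 ± 0.09), CTPS1 (0.59 ± 0.08), RRM2 (0.57 ± 0.11), SAMHD1 (0.55 ± 0.10) and TK1 (0.43 ± 0.10) were higher, and IMPDH2 (-0.46 ± 0.07), GART (-0.31 ± 0.08), NT5E (-0.30 ± 0.09) and CAD (-0.27 ± 0.08) were lower. The value of TK1 was 0.26 without PC9 osimertinib replicate 2, that of GART was -0.27 without erlotinib replicate 2 or osimertinib replicate 1, and neither was then called. CAD and NT5E also lost their calls without erlotinib replicate 2 (-0.24 and -0.21) or osimertinib replicate 2 (-0.24 and -0.23). NME2 was -0.50 ± 0.26 and was not called.

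In H1650, 5 of 34 genes were lower and 4 were higher with osimertinib than with erlotinib, against 3.73% and 5.02% over all genes. HPRT1 (0.45 ± 0.10), NME1 (0.36 ± 0.10), SAMHD1 (0.32 ± 0.09) and PAICS (0.22 ± 0.07) were higher, and NT5E (-0.40 ± 0.10), DCTPP1 (-0.30 ± 0.10), RRM2 (-0.29 ± 0.07), RRM1 (-0.28 ± 0.08) and CMPK1 (-0.26 ± 0.07) were lower. These calls are close to the threshold: at an adjusted p under 0.01 the count was 1, and without H1650 erlotinib replicate 1, erlotinib replicate 2, osimertinib replicate 1 or osimertinib replicate 2 the count was 5, 3, 2 and 3. DCTPP1 was also not called with DESeq2, RLE factors, no filter or 1 fit per line, RRM1 without a filter, and PAICS and NME1 with library totals alone.

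Before any drug the lines already differed. At T0, 18 of 34 genes were lower and 7 were higher in H1650 than in PC9, with 9 not called and a median log2 difference of -0.42, against 33.8% lower and 35.8% higher over all genes. NT5E was 13.9-fold lower in H1650 (log2 -3.79 ± 0.09), IMPDH1 was 4.88-fold lower (-2.29 ± 0.08) and DCTPP1 was 1.74 ± 0.09 lower on the log2 scale (-1.74). DCK (0.88 ± 0.10), TK1 (0.85 ± 0.08) and RRM2B (0.68 ± 0.09) were higher in H1650. RRM2 was also higher (0.62 ± 0.07), RRM1 was lower (-0.55 ± 0.08) and TYMS was not called (-0.08 ± 0.09). The genes that changed most against T0 thus did not share a direction at T0. Per kilobase of gene length, the highest mean levels at T0 were DTYMK (100.2 normalized CPM per kilobase), DCTPP1 (93.6) and TK1 (83.9) in PC9, and TK1 (151), IMPDH2 (70.0) and RRM2 (50.5) in H1650. In both lines ADSL and NME2 were the lowest, at 0.919 and 2.40 in PC9 and 1.24 and 1.84 in H1650. Each of them overlaps another gene on the same strand, so reads may be dropped and these levels are uncertain. The lengths used are those of the gene table, and other lengths were not tried.

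**Figure D5:**
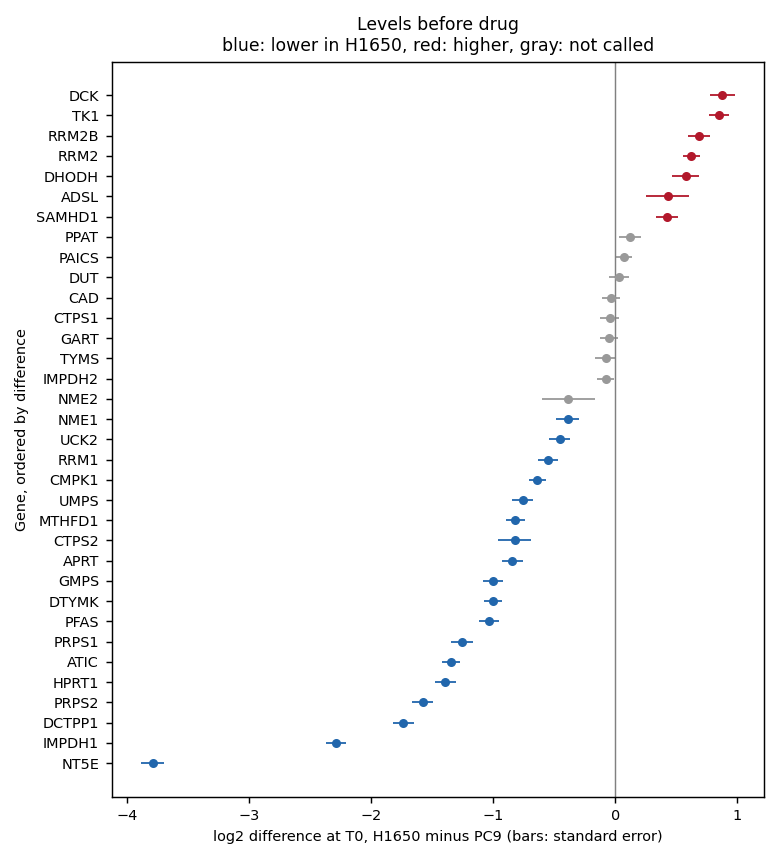
Log2 difference at T0, H1650 minus PC9, for the 34 genes ordered by size, with standard errors derived from the F statistic as bars. Blue is lower in H1650, red is higher and gray is not called. NT5E at -3.79 and IMPDH1 at -2.29 stand furthest to the left, and DCK at 0.88 furthest to the right.

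A list of 62 further nucleotide genes, written from general knowledge but with earlier results of these data known, gave 59 tested genes. After erlotinib in PC9, 29 fell (49.2%) and 8 rose (13.6%), against 29.1% and 32.7% of all genes, and after osimertinib 38 fell (64.4%) and 10 rose (16.9%), against 28.7% and 32.7%. In H1650, 15 fell (25.4%) and 14 rose (23.7%) after erlotinib, against 18.5% and 18.0%, and 16 fell (27.1%) and 9 rose (15.3%) after osimertinib, against 17.9% and 17.8%. Their median log2 changes in PC9 were -0.21 with erlotinib and -0.48 with osimertinib, and in H1650 0.0018 and -0.08. These medians were nearer to 0 than those of the 34 genes in each comparison. How far this depends on the choice of the lists was not tested. Of the 59, 6 (10.2%) were lower in all 4 comparisons, against 9.16% of all genes. The 3 of them with the largest mean log2 change were AK4, a mitochondrial adenylate kinase (-1.71), and the transporters SLC29A1 for nucleosides (-1.69) and SLC19A1 for folates (-1.19). NME3, a mitochondrial member of the NME1 family, was higher in all 4 (2.26 ± 0.13 and 1.99 ± 0.13 in PC9, 0.84 ± 0.12 and 0.86 ± 0.12 in H1650), and was the only one of the 59 (1.69%) to be so, against 8.47% of all genes.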

How the data were processed

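Poly(A) RNA was sequenced from 12 libraries. Reads went through DolphinNext, and the authors deposited raw featureCounts counts per gene and library, not normalized; the labels give the build GRCh38. The aligner, the annotation and whether counting used strand are not given in the sources used here. Replicates of a group were 2 labelled samples.

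The analysis used edgeR 4.0.16 under R 4.3.3. Genes were filtered by expression in the groups (19108 of 60591 kept), scaled by TMM (factors 0.941 to 1.08) and fitted by quasi-likelihood with 1 coefficient for each of the 6 groups, over all 12 libraries. P-values were adjusted by Benjamini-Hochberg over all tested genes, and an adjusted p under 0.05 is a call. Normalized CPM are reads per 1000000 of the TMM-scaled library. A count of 0 allows up to 3 reads, or 0.116 to 0.168 CPM, for counting error only. Alternatives were DESeq2 1.42.0, other normalizations and filters, 1 fit per line, a replicate block, a stricter threshold and leaving out each library. Exon overlaps were read from GENCODE 29 and promoters from RefSeq (GRCh38.p14).

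The members and lists were chosen with earlier results of these data known. Values in every library are given for RRM1, RRM2, RRM2B, TYMS, TK1, the highest and lowest genes of the comparisons and the 4 paralog pairs; the remaining genes are given by role. ATIC and PAICS were chosen after their values were seen.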

Additional observations from a re-analysis of the deposited data

Results flagged for a closer look

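The changes of the lines against T0 were compared by the drug-by-line difference, the log2 change in H1650 minus that in PC9. Without a 36 h vehicle library, it also holds any difference between the lines in the effect of 36 h in culture. The difference was tested in edgeR with Benjamini-Hochberg adjustment. It passed the threshold for 58 values of 31 genes, and each pair below gives the erlotinib value first and the osimertinib value second.

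In ribonucleotide reductase the differences were 2.78 and 2.33 for RRM1 and 4.02 and 3.17 for RRM2. In thymidylate supply they were 4.19 and 3.69 for TYMS, 1.92 and 1.57 for TK1, and 1.98 and 1.91 for DTYMK. DCK gave 1.17 and 1.18. Among the dNTP hydrolases DUT gave 1.26 and 1.05, DCTPP1 gave 1.44 and 1.12, and SAMHD1 gave 1.85 and 1.62, the last from opposite directions in the lines.

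PRPS1 was negative with both drugs (-0.92 and -1.59), that is, lower in H1650 relative to PC9, while PRPS2 was positive (1.06 and 0.79). In IMP synthesis the values were 0.86 and 1.16 for PPAT, 0.79 and 0.88 for GART, 1.04 and 1.31 for PFAS, 1.20 and 1.61 for PAICS, and 0.44 and 0.41 for ATIC, and ADSL passed with osimertinib (0.75). The ADSL call was lost without PC9 osimertinib replicate 2 (0.66), H1650 T0 replicate 2 (0.66) or H1650 osimertinib replicate 1 (0.57), and with DESeq2. In the guanine branch IMPDH1 gave 0.86 and 1.02 and GMPS 1.05 and 1.15, and IMPDH2 was negative with erlotinib (-0.32).

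In pyrimidine synthesis the values were 0.54 and 0.75 for CAD, 0.62 and 0.88 for DHODH, and 1.08 and 1.23 for UMPS. CTPS1 was negative with osimertinib (-0.70). CTPS2 passed with erlotinib (0.49) but was 0.25, and not called, without PC9 T0 replicate 2, and was also lost without either PC9 erlotinib replicate (0.48 and 0.50), either H1650 T0 replicate (0.50 for both) or H1650 erlotinib replicate 1 (0.46). With all libraries kept, the CTPS2 call was also lost with DESeq2 (0.49) and with upper-quartile factors (0.41). NME1 gave 1.42 and 1.81, CMPK1 0.70 and 0.46, HPRT1 1.69 and 2.14, UCK2 1.27 and 1.42, MTHFD1 1.29 and 1.18, and NT5E 2.25 and 2.15. RRM2B, NME2 and APRT did not pass with either drug, which does not show that they responded alike.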

How the results depend on the processing

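The 241 gene values followed here are those of all 34 genes in the 4 drug comparisons and of called or named genes in the other 5. Each of the 218 called ones kept its direction in every alternative in which it was fitted. Of these, 31 lost their call in at least 1 alternative, 17 of them with all 12 libraries kept, and 10 of 23 uncalled values were called in at least 1. Counts of called genes stayed within 1.5 times the value reported in all comparisons but osimertinib against erlotinib in H1650, where 9 became 1 at an adjusted p under 0.01 and ranged from 2 to 9 when 1 library was left out. Among these 241, only uncalled values near 0 changed sign. With erlotinib in H1650, CMPK1 became -0.0011 with DESeq2 and -0.0013 without a filter; PRPS2 became 0.0070 with upper-quartile factors, 0.0167 with at least 10 counts in every library and 0.00018 with 1 fit per line; ATIC became 0.0063 with at least 10 counts. Library totals alone, which shifted the median of all genes there by 0.125, gave 0.0305 for DUT, 0.122 for PRPS2, 0.112 for ATIC and 0.0478 for NT5E. RRM2B by line with osimertinib became 0.0052 without a filter. Leaving out 1 library gave -0.0825 to 0.0714 for PRPS2, -0.0686 to 0.0362 for ATIC and -0.0134 to 0.0527 for CMPK1 with erlotinib in H1650, -0.0122 to 0.108 for CTPS2 with osimertinib in H1650, and -0.0261 to 0.277 for CTPS1 by line with erlotinib. The cause was not tested.

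With the replicate number as a block, the counts were 34, 34, 27 and 31 in the 4 drug comparisons, 30 and 29 by line, 12 and 13 between the drugs in PC9 and H1650, and 25 at T0. The block added calls for PRPS1 with osimertinib in PC9, for GART, GMPS and UMPS with erlotinib in H1650, and for ATIC, IMPDH1, GMPS, UMPS and UCK2 with osimertinib in H1650. In the labels, replicates of the same number share that number and a run of consecutive library names, and no batch is named. Deviations of same-numbered libraries correlated by 0.0030 to 0.47 over 15 pairs of groups, all of them positive. Depth limits ADSL and NME2 most, with as few as 54 and 44 reads in a library.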

Other observations

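Some folate and salvage genes of the wider list, named here after their values were seen, are given as values. MTHFD2, a mitochondrial one-carbon enzyme, was higher with erlotinib in PC9 (log2 0.81) and H1650 (0.86) and lower with osimertinib (-1.91 and -0.31). SHMT2, which makes mitochondrial one-carbon units from serine, was higher with erlotinib (0.94 and 0.76) and lower with osimertinib (-0.66 and -0.40). PNP, which splits purine nucleosides, was lower with both drugs in PC9 (-3.24 and -2.69) and not called in H1650 (-0.14 and -0.21).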
